A study of Mus musculus with 12 samples.

Results

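Expression of 10 genes of ciliary transport was examined across clones of cells in the mouse Fallopian tube. The genes were Kif17, Cdkl1, Kif3a, Kif3b, Kifap3, Dync2h1, Dync2li1, Ift88, Mak and Cilk1, found by symbol among the 35509 genes of the count table. Kif17 (ENSMUSG00000028758, chromosome 4) and Cdkl1 (ENSMUSG00000020990, chromosome 12) were chosen by their lower counts in large clones. Their difference between clone sizes is therefore a description, and no p-value is given for it. Calls of either gene in an alternative method are no evidence for it. The other 8 were added for comparison as motors, motor adaptors, cargo and kinases of the same transport system. All 10 occurred once in the table, and 8 of them passed the filter on low counts. The libraries came from 6 mice aged 4 weeks, each of which gave 1 library of large clones and 1 of small clones with 200 pooled cells per library. All mice were MADM wild types carrying the RG and GR alleles on a mixed background, and none was treated. MADM (mosaic analysis with double markers) marks a dividing cell and its descendants by recombination between chromosomes, so that a clone and its size can be seen. Cells were taken by laser microdissection from the distal region of the tube, and the labels name that region where a cell type would stand. The driver of recombination and the sizes that separate large from small clones are not given in the sources used here.

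Cilia are built and maintained by intraflagellar transport, in which trains of IFT-A and IFT-B proteins are carried along the axoneme. Kinesin-2 motors move the trains towards the tip and dynein-2 returns them to the base, while kinases of the MAK and CDKL families act on the length of the cilium and the turnaround at its tip. In the oviduct, multiciliated cells carry motile cilia and other cells, secretory cells among them, can carry a primary cilium, so transport genes are not restricted to the multiciliated type. The heterotrimer of KIF3A, KIF3B and the adaptor KAP3 (Kifap3) is the general kinesin-2 of mammalian cilia, and KIF17 is a homodimeric kinesin-2 known from sensory cilia and neuronal dendrites.

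The upstream sequences of Kif17, Cdkl1 and Kif3a are shown because the first pair of genes carries the difference described here and Kif3a had the highest mean level per exon length of the 10. Each line gives the 250 bases before the annotated start, 5′ to 3′ on the strand of the gene, from RefSeq on GRCm38.p6: chr4:138262001-138262250 on the plus strand for Kif17, chr12:69790708-69790957 on the minus strand for Cdkl1 and chr11:53567119-53567368 on the plus strand for Kif3a. Capitals mark an X-box, the motif read by RFX factors at many cilia genes, or its arm GTTGCC.
Kif17: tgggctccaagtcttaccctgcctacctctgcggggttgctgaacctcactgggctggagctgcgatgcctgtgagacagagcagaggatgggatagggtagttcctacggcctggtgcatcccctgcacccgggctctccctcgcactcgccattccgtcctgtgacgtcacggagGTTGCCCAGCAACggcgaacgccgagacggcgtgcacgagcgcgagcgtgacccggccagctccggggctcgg
Cdkl1: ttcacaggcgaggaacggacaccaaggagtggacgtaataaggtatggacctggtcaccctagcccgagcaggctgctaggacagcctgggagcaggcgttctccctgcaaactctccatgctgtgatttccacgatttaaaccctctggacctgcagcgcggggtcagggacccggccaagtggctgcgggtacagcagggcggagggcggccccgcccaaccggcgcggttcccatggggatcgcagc
Kif3a: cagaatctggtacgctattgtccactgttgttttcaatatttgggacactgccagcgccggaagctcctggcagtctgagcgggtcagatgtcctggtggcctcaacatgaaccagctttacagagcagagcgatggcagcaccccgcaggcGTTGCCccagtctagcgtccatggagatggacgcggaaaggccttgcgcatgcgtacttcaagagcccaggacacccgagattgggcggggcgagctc
The Kif17 sequence held an X-box of 13 bases, GTTGCCCAGCAAC, whose first base lay 73 bases before the start. Such a match, searched only on the strand of the gene, occurred in 0.831% of 32851 promoters of the same length. It was in 1 of the 9 genes with an entry (all but Dync2li1). The arm GTTGCC, which overlaps the X-box in Kif17, was also found 98 bases before the start of Kif3a, and 10.4% of all promoters held it on either strand. The forkhead motif GTAAACA, also searched on both strands, was in none of the 9 genes' sequences and in 3.17% of promoters. The Cdkl1 sequence held none of the 3 motifs, with the X-box searched on the strand of the gene only. The GC content was 66.4% for Kif17, 64.0% for Cdkl1 and 58.8% for Kif3a, against a median of 52.4% over all promoters. A match describes the letters of these windows and was not linked to binding by any measurement here.

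Total expected counts were 3057979 to 4227129 per library. The 5 libraries with the higher share of counts on chemoreceptor genes (7.863% to 11.02%, against 0.841% to 4.17% in the other 7) stood apart, and were the large clones of mice 1, 2 and 6 and the small clones of mice 3 and 6. Results are therefore given for the 7 libraries as well. Levels are in CPM (counts relative to library totals, adjusted by TMM factors in edgeR), and the 3 counts that a count of 0 allows came to between 0.585 and 1.33 CPM, for counting error only. Epithelial markers (Epcam, Krt8, Krt18, Krt19, Cdh1) were present in every library, with sums of 244 to 8592 CPM (large clones) and 723 to 7824 CPM (small clones). Secretory-cell markers summed to 468 to 5222 and 543 to 8801 CPM. Markers of motile ciliated cells (14 genes with Foxj1) summed to 194 to 1327 CPM (large clones) and 135 to 2011 CPM (small clones), with at least 12 of the 14 genes detected in every library. Neuronal markers summed to 7.01 to 176 CPM and 6.08 to 227 CPM. Endothelial markers summed to 26.4 to 363 CPM (large clones) and 40.6 to 117 CPM (small clones), and of these Pecam1 and Kdr were detected in all 12 libraries, Cdh5 in 3 and Tek in 2. Immune markers summed to 0 to 249.3 CPM (large clones) and 3.40 to 103 CPM (small clones). Fibroblast markers summed to 15.8 to 521 and 37.1 to 168 CPM, smooth muscle markers to 4.10 to 71.1 and 1.68 to 118 CPM, and red blood cell markers to 200 to 5928 and 33.0 to 2137 CPM. The large clones of mouse 4 had the highest sums of endothelial, fibroblast and red blood cell markers and no immune marker counts. The part of these cell types in the results was not tested.

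Kif17 encodes the homodimeric kinesin-2. Its counts in the small clones of mice 1 to 6 were 6, 60, 108, 324, 20 and 235, and in the large clones 6, 4, 4, 6, 20 and 4. Every large-clone library except that of mouse 5 thus had 4 to 6 counts, and the small clones of mice 2, 3, 4 and 6 stood out above all large clones. These 4 libraries held 727 of the 753 counts in small clones (96.5%). In CPM the large clones ran from 0.780 over a median of 1.46 to 5.62, and the small clones from 1.90 over a median of 23.9 to 110.2. Among all genes tested 0.0369% were lower in large clones with no overlap. For Kif17 the groups overlapped, because the small clones of mouse 1 (1.90 CPM) lay below the large clones of mice 4 and 5 (2.67 and 5.62 CPM). The log2 fold change, large minus small throughout, was -4.04 (SE 1.03), that is 16.5-fold lower in large clones. The level was lower in large clones in 6 of 6 mice, a pattern that 1.05% of the 10848 genes tested had. The 6 include mouse 5 with 5.62 against 5.79 CPM and mouse 1 with 1.27 against 1.90 CPM. In these 2 mice the counts were equal (20 and 20, 6 and 6), so their order comes from the scaling of the libraries alone. On the log2(CPM + 1) scale the difference between libraries of a mouse was -4.92 in mouse 4, -4.82 in mouse 6, -3.50 in mouse 2 and -3.39 in mouse 3. Those of mouse 1 and mouse 5 were -0.35 and -0.04. The mice therefore fell into 4 with a wide gap and 2 with almost none. In the 7 libraries of lower chemoreceptor share the log2 fold change was -3.27 and in the 5 others -5.27. In libraries of pooled cells, fewer cells that express a gene and less RNA per cell cannot be told apart.

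Cdkl1, a CDKL-family kinase whose relatives restrain or adjust cilium length in several organisms, was measured more deeply than Kif17, with 1630 against 797 counts in all. Its counts in the small clones of mice 1 to 6 were 56, 358, 502, 208, 172 and 48, and in the large clones 38, 95, 7, 9, 136 and 1. The large clones of mice 3, 4 and 6 were the low ones, and those of mouse 5 the highest among large clones. Levels ran from 0.195 over a median of 6.03 to 38.2 CPM in large clones, and from 10.1 over a median of 60.3 to 125.1 CPM in small clones, so that the groups overlapped. The log2 fold change was -2.39 (SE 1.02), a 5.24-fold lower level. All 6 mice had the lower level in large clones, with differences on the log2(CPM + 1) scale of -5.01 in mouse 3, -3.84 in mouse 4, -3.21 in mouse 6, -2.43 in mouse 2, -1.05 in mouse 1 and -0.37 in mouse 5. Mice 1 and 5 thus had the smallest gap for both genes. The log2 fold change was -2.09 in the 7 libraries of lower chemoreceptor share and -2.87 in the 5 others, and without mouse 5 it was -3.24.

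**Figure D1:**
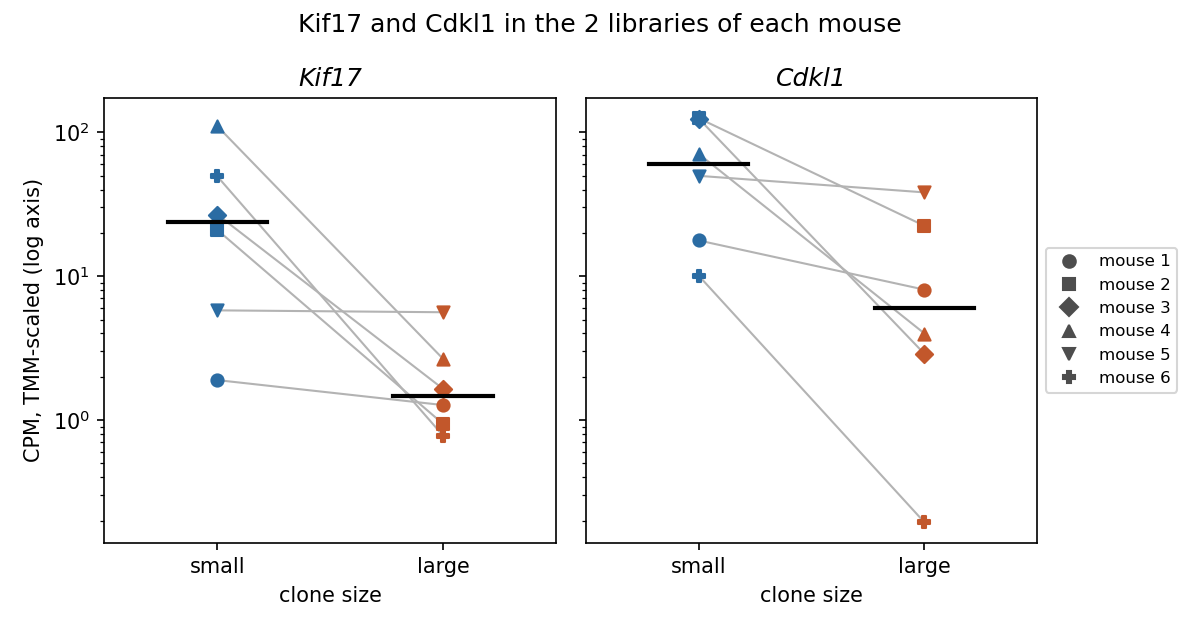
Level of Kif17 (left) and Cdkl1 (right) in CPM on a log axis, in small and large clones. Points are libraries, shapes and grey lines join the libraries of a mouse, and black bars are medians. The lines of mice 1 and 5 are nearly flat for Kif17 (1.90 to 1.27 and 5.79 to 5.62 CPM), while mice 2, 3, 4 and 6 drop steeply.

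No other kinesin-2 gene was lower in large clones in all 6 mice. Only 1.05% of all genes tested were, and Kif17 was picked for lower counts, so this does not show that it differs from its family. Kif3a, the motor subunit common to the heterotrimeric kinesin-2 complexes, ranged from 26.3 to 172.8 CPM in large clones (median 89.5) and from 37.1 to 133.2 CPM in small clones (median 97.7). The ranges coincided over most of their length, and 3 mice were lower and 3 higher in large clones. Its log2 fold change was 0.007 (SE 0.53), with an adjusted p of 0.9998 in edgeR, where 0% of all genes tested passed an adjusted p under 0.05 and 2.54% had an unadjusted p under 0.05. DESeq2, run as an alternative, called 5 genes, and Kif3a was not among them. Single mice moved the estimate: it was -0.50 without mouse 2, whose large clones held the top value, and 0.28 without mouse 6, whose large clones held the lowest. In the 7 libraries of lower share it was 0.11. Kif3a had a biological coefficient of variation of 71.7% against a median of 107.6% over all genes tested.

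Kif3b, the usual partner of KIF3A, was too low to test. Its counts in the large clones of mice 1 to 6 were 4, 4, 54, 0, 9 and 3, and in the small clones 0, 1, 9, 133, 10 and 51. The large clones of mouse 3 and the small clones of mice 4 and 6 held most of them. Kif3b was lower in large clones in 3 mice and higher in 3. Kif3c, the alternative partner, had 54 counts over 8 libraries and was not tested either.

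Kifap3, the adaptor that joins the heterotrimer to its cargo, had 0, 4.29, 4.46, 41.3, 68.5 and 127.0 CPM in the large clones of mice 2, 6, 1, 4, 5 and 3. In the small clones of mice 3, 6, 2, 1, 5 and 4 it had 1.74, 2.73, 14.7, 37.0, 74.7 and 125.5 CPM. Both clone sizes therefore spanned the same range from near 0 to over 100 CPM. The log2 fold change was -0.06 (SE 1.27, adjusted p of 0.9998 in edgeR), and 4 of 6 mice were lower in large clones. Adding the chemoreceptor share to the model gave 0.60, and the estimate was 0.31 in the 7 libraries of lower share, -1.10 without mouse 3 and 0.61 without mouse 4. With mouse as a block it was -0.97, and in limma with quality weights -2.29.

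**Figure D2:**
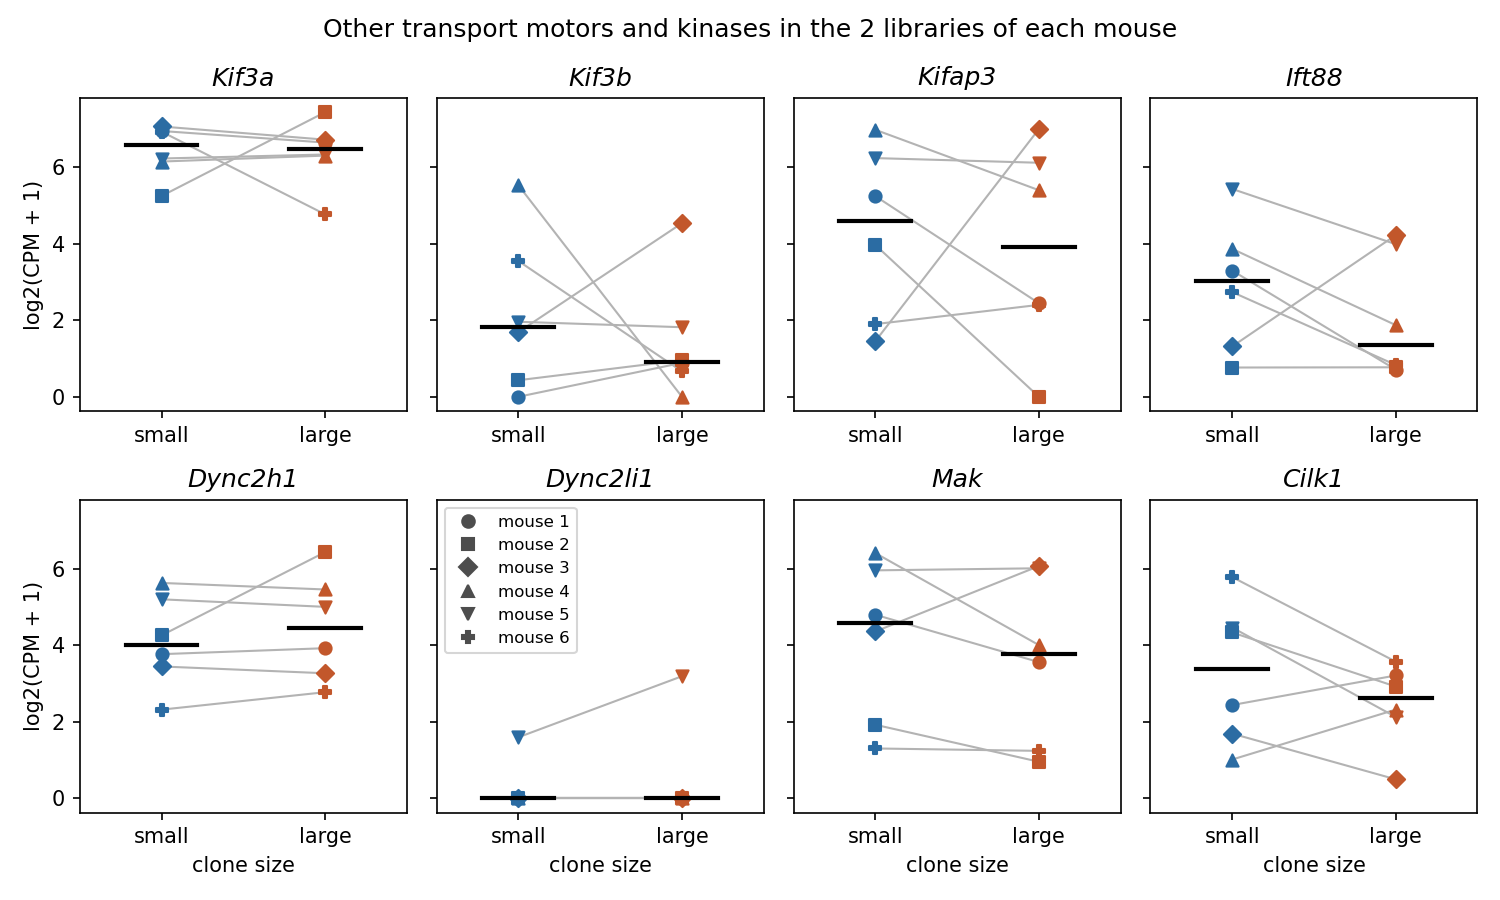
Level of the 8 comparison genes as log2(CPM + 1) in small and large clones, with the libraries of a mouse joined by grey lines, mice shown by shape and medians as black bars. Kif3a is high in every library, Dync2li1 is above 0 only in mouse 5, and the lines of the other genes cross.

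Of the dynein-2 genes, Dync2h1, the heavy chain that carries the motor activity, was found in all 12 libraries, at 5.85 to 85.7 CPM (median 22.7) in large and 3.99 to 48.7 CPM (median 15.4) in small clones. Its log2 fold change was 0.55 (SE 0.83, adjusted p of 0.9998 in edgeR), with 3 mice on each side. The libraries of a mouse resembled each other in this gene: 43.1 and 48.7 CPM in mouse 4, 31.2 and 35.9 in mouse 5, 14.2 and 12.7 in mouse 1, 8.66 and 9.92 in mouse 3, and 5.85 and 3.99 in mouse 6, large before small. Mouse 2 was the exception with 85.7 against 18.2 CPM. Without mouse 2 the log2 fold change was -0.16, and in the 7 libraries of lower share it was -0.05, against 2.24 in the 5 others. Dync2li1, the light intermediate chain that stabilizes the heavy chain, was detected in mouse 5 alone, with 29 counts in its large and 7 in its small clones, and had 0 counts in the other 10 libraries. It was not tested.

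Of 13 dynein-2 genes, including light chains that dynein-2 shares with cytoplasmic dynein, 11 were tested and 0 passed, with 4 below and 7 above 0. The intermediate chains Dync2i1 and Dync2i2 had log2 fold changes of 0.03 (SE 1.13) and 1.05 (SE 0.71). The light chains ran from -1.31 (SE 1.67) for Dynlrb2 to 1.84 (SE 1.25) for Dynlrb1, of whose counts 56.8% came from the large clones of mouse 4. Dynll1, the LC8 light chain, had 0.06 (SE 0.42), Dynll2 0.61 (SE 0.83) and Dynlt2b -0.07 (SE 1.06). Dynlt1a, Dynlt1c and Dynlt1f, near-identical copies among which RSEM divides reads, had -0.96, 0.38 and -0.74, and their separate values are uncertain.

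Ift88, an IFT-B subunit needed for cilium assembly, had 361 counts in all. Its counts in the large clones of mice 1 to 6 were 3, 3, 43, 6, 53 and 4, and in the small clones 28, 2, 6, 40, 146 and 27. The large clones were at 6 counts or fewer in 4 mice, and the groups overlapped. The log2 fold change was -0.96 (SE 1.12, adjusted p of 0.9998 in edgeR), lower in large clones in 4 of 6 mice. Without mouse 3 it was -1.85, and in the 7 libraries of lower share -0.50. Of the 18 IFT-B genes 14 were tested, 0 passed, and 8 were below and 6 above 0. Ift46 (-0.66, SE 0.59), Ift27 (-0.86, SE 0.85), Ift20 (-0.55, SE 0.65) and Ift172 (-0.55, SE 1.19) each had the lower level in large clones in 5 of 6 mice. Being lower in 5 or 6 mice was shown by 7 of the 44 tested list genes that are not members, and by 13.5% of all genes tested. Hspb11, also called IFT25, was the most abundant tested IFT-B gene per exon length and had 0.47 (SE 0.67).

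The kinases Mak and Cilk1 belong to 1 family and act at the ciliary tip, where loss of either lengthens cilia or disturbs the turnaround of trains in several systems. Mak had 0.942 to 66.4 CPM (median 12.96) in large and 1.47 to 84.4 CPM (median 23.2) in small clones. Its difference between clone sizes was -0.31 on the log2 scale (SE 1.12, adjusted p of 0.9998 in edgeR), lower in large clones in 4 of 6 mice. It was 0.32 without mouse 4, -0.95 without mouse 3, 0.15 in the 7 libraries of lower share and -1.44 in the 5 others. Cilk1 had 0.412 to 10.9 CPM (median 5.30) in large and 1.02 to 54.2 CPM (median 11.8) in small clones. The small clones of mouse 6 alone held 258 of its 557 counts (46.3%). Its log2 fold change of -1.60 (SE 0.99) lay farthest from 0 among the 6 tested comparison genes, and the unadjusted p was 0.13 (adjusted p of 0.9998 in edgeR). Mice 1 and 4 went the other way, by 0.77 and 1.31 on the log2(CPM + 1) scale. In the 7 libraries of lower share the log2 fold change was -2.17, without mouse 6 it was -1.02, and with limma and quality weights it was -0.31.

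Cdkl3, another CDKL kinase, had an estimate near 0. Its large clones averaged 20.5 ± 13.6 CPM and the small clones 21.4 ± 10.3 CPM (SD, n = 6 each), with a log2 fold change of -0.06 (SE 0.70). Cdkl2 and Cdkl4 were not tested, with 140 and 304 counts in all. Cdk20, an activating kinase of CILK1 and MAK, had 138.7 ± 81.0 and 122.9 ± 81.4 CPM (SD, n = 6 each) and 0.17 (SE 0.60). Nek8 had -0.41 (SE 0.78) and Ttbk2, which starts ciliogenesis at the mother centriole, -0.25 (SE 0.63). Of 12 kinase genes 8 entered the fit. Without Cdkl1, which was picked for its direction, 5 of 7 were below 0, against 46.8% of all genes tested, and 0 passed.

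Over all lists 71 genes were in the table and 52 were tested. Without Kif17 and Cdkl1, 0 of 50 tested genes had an adjusted p under 0.05 in edgeR, and 0 had an unadjusted p under 0.05, against 1.1% of all genes tested that were lower and 1.44% that were higher in large clones at that threshold. DESeq2 passed none of the 50 either. None of them was lower in large clones in 6 of 6 mice (1.05% of all genes) or higher in 6 of 6 (1.16%). The median log2 fold change of the 50 was -0.03, with 52.0% below 0, against 0.06 and 46.8% over all genes tested. Of 7 IFT-A genes, Tulp3 included, 6 were tested and 3 were on each side of 0, from -0.83 (SE 1.07) for Ift140 to 0.95 (SE 0.73) for Wdr19. Tulp3 was the most and Ttc21b the least abundant of them per exon length, with 0.15 (SE 0.49) and -0.16 (SE 0.73). Of 9 genes of the BBSome, the coat that carries membrane proteins out of cilia, 5 were tested and 4 were above 0. Bbs4 and Bbs5, its most and least abundant tested genes per exon length, had 0.51 (SE 0.65) and 0.37 (SE 0.83). Of 7 other cilia kinesins 5 were tested, from -1.05 (SE 1.11) for Kif6 to 1.28 (SE 0.85) for Kif9. In the 7 libraries of lower share 57 list genes could be tested and 0 passed.

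**Figure D3:**
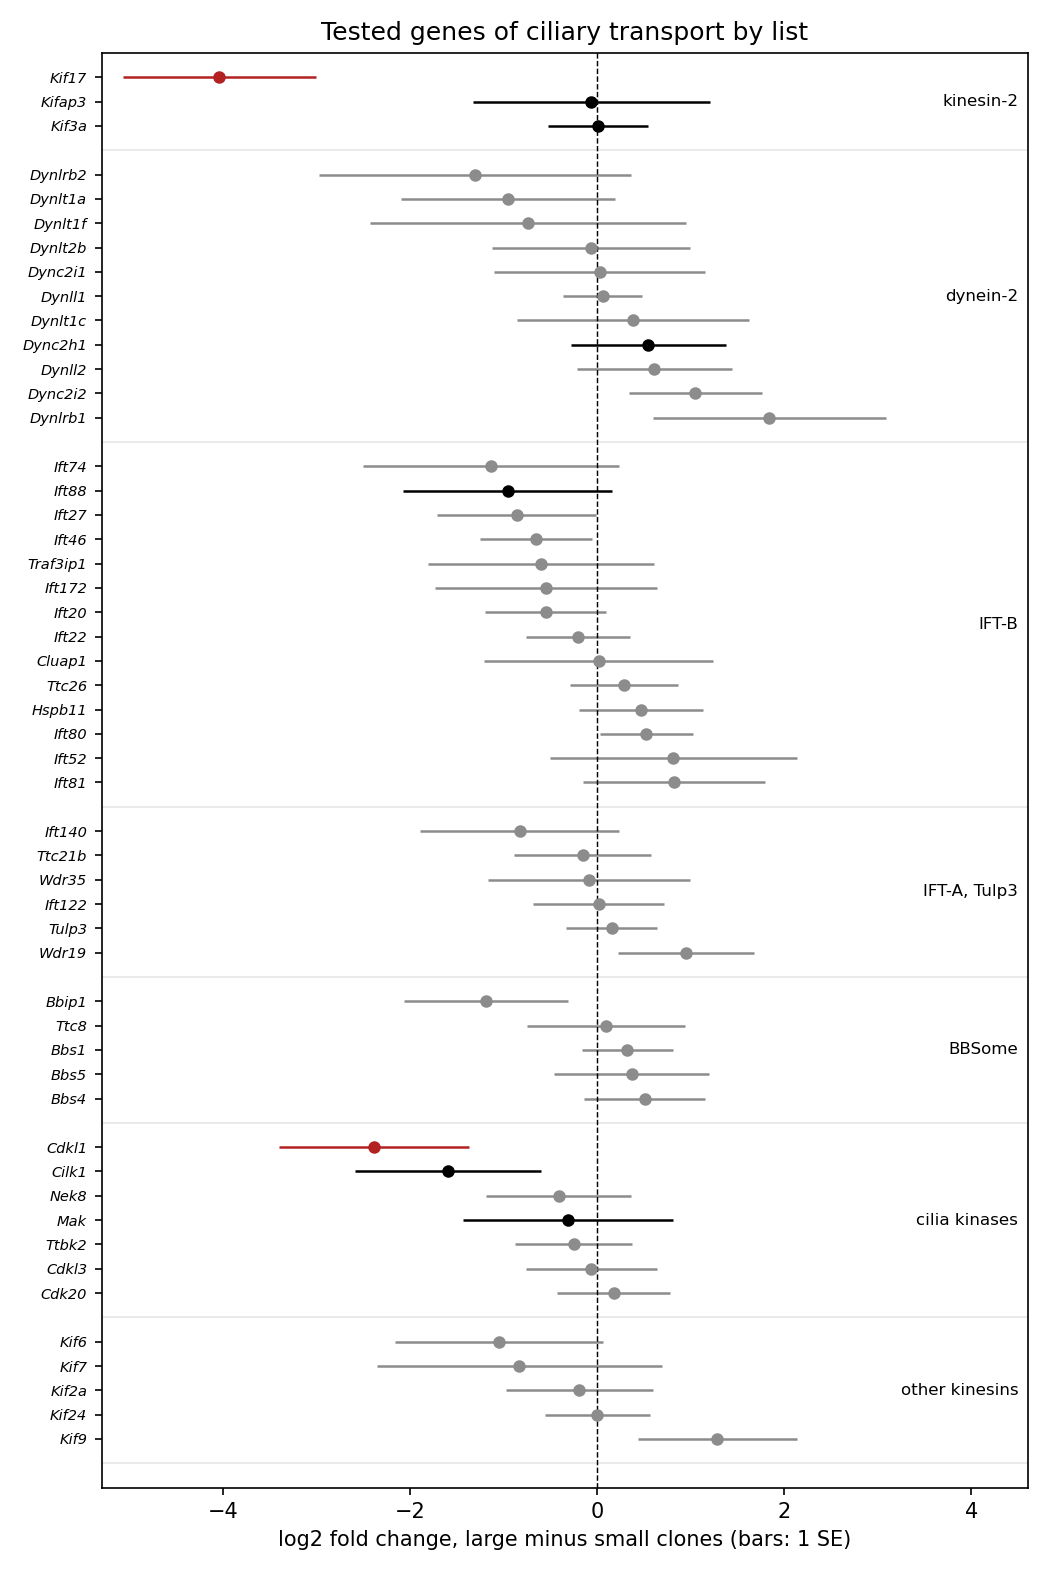
Log2 fold change, large minus small clones, of tested genes of ciliary transport, by list, with bars of 1 SE. Kif17 and Cdkl1 (red) were picked for this difference, other members are black and the remaining genes grey. Kif17 (-4.04) and Cdkl1 (-2.39) lie to the left, and the others lie between -1.60 (Cilk1) and 1.84 (Dynlrb1).

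Levels of different genes were compared as CPM per kb of exon (GENCODE M21 basic transcripts). The order of the mean over 12 libraries was Kif3a at 28.9 ± 12.8, Cdkl1 at 23.4 ± 26.7, Kifap3 at 10.4 ± 11.8, Mak at 8.03 ± 8.32 and Kif17 at 5.50 ± 9.36 (SD, n = 12). Then came Ift88 at 2.97 ± 3.93, Dync2h1 at 1.83 ± 1.66, Cilk1 at 1.36 ± 1.81, Kif3b at 1.31 ± 2.41 and Dync2li1 at 0.626 ± 1.75. Each neighbouring pair in this order differed by less than the larger of its SDs. Kif3a exceeded Kifap3, the third in the order, by more than either SD. The heavy chain gene Dync2h1 has 14467 exon bases, so that its 26.5 CPM on average become one of the lower levels per length. Dividing by the whole exon length takes reads to cover all of it. Coverage along transcripts was not examined after the poly(A) amplification, so the order of long and short genes is uncertain.

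**Figure D4:**
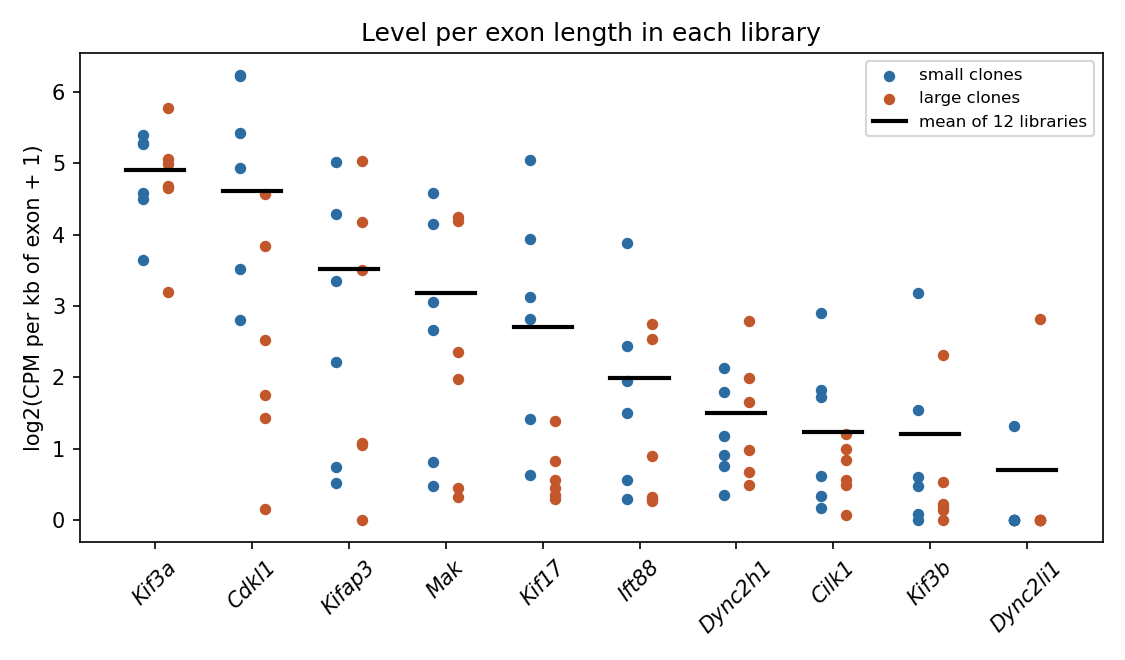
Level of the 10 genes as log2(CPM per kb of exon + 1), ordered by the mean of 12 libraries (black bars), with small clones in blue and large clones in orange. Kif3a is high in all libraries. Kif17 and Cdkl1, picked for lower counts in large clones, have all 6 large-clone points below the mean. Those of Cilk1 lie below its mean too, but the small clones of mouse 6 hold 46.3% of its counts and raise that mean. The small clones of mice 1, 3 and 4 also lie below the Cilk1 mean. The share of all genes with such a pattern was not counted.

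The members were also set against the 5 libraries that stand apart in composition. Kifap3 had 0 to 4.46 CPM in the 5 libraries of higher chemoreceptor share and 14.7 to 127.0 CPM in the 7 others, with no overlap. Among all genes tested, 9.98% were lower without overlap in the 5 libraries and 8.62% were higher, together 18.6%. Of the 8 tested members 1, Kifap3, had either pattern (12.5%), a share no higher than that of all genes. Mak had a median of 1.47 against 61.4 CPM and Ift88 0.780 against 13.6 CPM, both with overlap. Kif3a had 121.3 against 78.2 CPM and Cilk1 8.27 against 4.00 CPM. Kif17 and Cdkl1 had high and low libraries on both sides, 0.780 to 49.4 against 1.65 to 110.2 CPM and 0.195 to 124.5 against 2.89 to 125.1 CPM. The part of library composition in these levels was not tested.

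**Figure D5:**
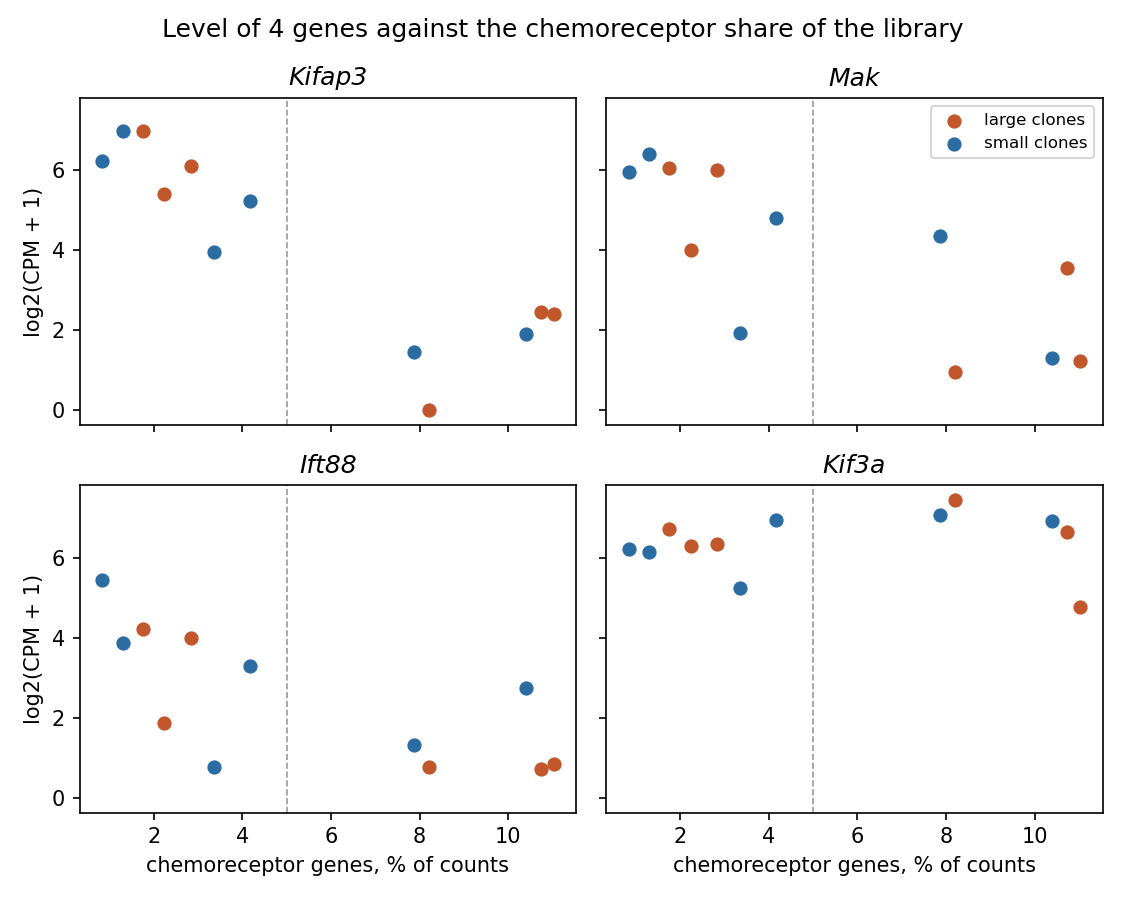
Level of Kifap3, Mak, Ift88 and Kif3a as log2(CPM + 1) against the share of counts on chemoreceptor genes in each library, with large clones in orange, small clones in blue and a dashed line at 5%. Kifap3 lies at 4.46 CPM or less right of the line and at 14.7 CPM or more left of it, and Kif3a is high on both sides.

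Likeness to other genes was measured as Spearman's rho over the 12 libraries among the genes tested. It is a description, since the 2 libraries of a mouse are not independent and genes of 1 library share its depth and composition, which differed between libraries. Nearest to Kif17 were Klf6 (0.86), U2af1 (0.85), Zfp13 (0.85), Kyat1 (0.84) and Bpnt2 (0.82). Nearest to Cdkl1 were Prkdc (0.88), Telo2 (0.87), Acsf2 (0.87), AI837181 (0.86) and Psmd10 (0.85). Kif17 and Cdkl1 had a rho of 0.68 with each other, and both were chosen for the same difference. None of the genes nearest to Kif17 or Cdkl1 is on the lists of ciliary transport. Only 52 of the 10848 genes tested are on those lists, so 5 nearest genes would rarely include 1, and nothing follows from this. The nearest genes of Kif3a were Msn (0.85), Tbx3 (0.85) and Kif28 (0.85), and those of Kifap3 were Cers5 (0.99), Gnl1 (0.99) and Uqcc3 (0.97). For Dync2h1 they were Cnot9 (0.91), Mr1 (0.91) and Alg8 (0.85), and for Ift88 they were 2810459M11Rik (0.93), Taok3 (0.91) and Ube2l3 (0.90). For Mak they were Macroh2a1, Ckap4 and Brd9 (0.96 each), and for Cilk1 Ero1b (0.89), Psma1 (0.87) and Phospho2 (0.84). Among members, Kifap3 and Mak had a rho of 0.85, Mak and Ift88 0.77, and Kifap3 and Ift88 0.73. Many other genes lay nearer to each of the 3. By rho to Kifap3, Mak had rank 354 and Ift88 rank 1546 among the genes tested. By rho to Mak, Kifap3 had rank 149 and Ift88 rank 609, and by rho to Ift88, Mak had rank 180 and Kifap3 rank 367. These pairs therefore do not stand out. Kif3a and Kifap3, subunits of the same complex, had a rho of -0.43.

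Within a clone size the 6 libraries come from different mice, and 6 relations among Kif17, Cdkl1 and the summed ciliated-cell markers were tested on log2(CPM + 1). In large clones Kif17 and the marker sum had a Pearson r of 0.85 (two-sided exact permutation p of 0.0167, adjusted p of 0.1) and a Spearman rho of 0.83 (exact p of 0.0583, adjusted p of 0.35). Kif17 had only 4 to 6 counts in the large clones of every mouse but mouse 5. Its order among those libraries therefore rests on very few counts and on the scaling of the libraries. Without the 2 libraries farthest from the median of Kif17 the r was 0.73 over 4 libraries, and in small clones it was -0.71. In small clones the same relation had an r of 0.05 (exact p of 0.9, adjusted p of 0.983) and a rho of -0.03. Kif17 and Cdkl1 had an r of 0.56 in large clones (exact p of 0.253, adjusted p of 0.758) and 0.23 in small clones (exact p of 0.656, adjusted p of 0.983). Their rho values were 0.49 and 0.09, and without the 2 farthest libraries r was 0.15 and -0.36. Cdkl1 and the marker sum had an r of 0.37 in large clones (exact p of 0.453, adjusted p of 0.906) and -0.02 in small clones (exact p of 0.983, adjusted p of 0.983). Without the 2 farthest libraries these were -0.70 and -0.72, so the sign in large clones rests on those libraries. No relation passed after adjustment over the 6. The small clones of mouse 4 had both the highest Kif17 level and the highest marker sum (2011 CPM), but those of mouse 3 had 26.8 CPM of Kif17 and 124.5 CPM of Cdkl1 with the lowest marker sum (135 CPM). Of the 14 markers, 11 had the higher mean in small and 3 in large clones. The small clones of mouse 4, with the highest marker sum, can raise many of these means at once. Medians of the marker sum were close, at 587 (large clones) and 611 CPM (small clones). By mouse, the sum was higher in large clones in mice 3 and 5 and lower in mice 1, 2, 4 and 6. The share of all genes with a higher mean in small clones was not counted. Foxj1, the master regulator of motile cilia, averaged 3.51 ± 3.09 CPM over large clones and 8.43 ± 10.8 CPM over small clones, while Sntn averaged 51.7 ± 35.8 CPM over large and 7.15 ± 11.02 CPM over small clones (SD, n = 6 each). The part of ciliated-cell content in the levels of Kif17 and Cdkl1 was not tested beyond these values.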

How the data were processed

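RNA of 12 libraries, 6 of large and 6 of small clones from the same 6 mice, was measured by sequencing after poly(A) amplification. The authors deposited expected counts per gene; RSEM, Bowtie2 and GRCm38 are named in the submitters' processing notes, without versions or the annotation release. The table names no build for its coordinates, and 2.96% of 35491 shared genes, and 1 of the 10 members, have the chromosome and start of GENCODE M21 (GRCm38). They are not printed, and the sequences shown carry RefSeq's GRCm38.p6 positions. The 1 row without a symbol (0.133% of counts) was kept under its identifier.

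Expected counts were rounded and tested with edgeR 4.0.16 (R 4.3.3; quasi-likelihood, TMM, filterByExpr, Benjamini-Hochberg adjustment at 0.05), which left 10848 genes. Per the labels, a mouse number marks 1 animal that gave both libraries, so the numbers pair the samples. The correlation of their deviations from the group means was -0.02, -0.007, -0.38, 0.28, 0.52 and 0.64 for mice 1 to 6. An edgeR fit with mouse as a block changed no call. Named genes were all members, tested kinesin-2, dynein-2 and kinase genes, list genes with an unadjusted p under 0.05, the most and least abundant gene of each list per exon length, and the 5 (3 for other members) genes with the highest rho. 1 gene that this rule names is not reported here. Other genes were named after their values were seen. The members and lists were chosen with earlier results of these data known. Alternatives included DESeq2 1.42.0 and limma 3.58.1. The edgeR step was also run on simulated counts of independent libraries, without an effect of mouse or chemoreceptor share, so that run does not cover these features. Figures used matplotlib 3.10.9 and exact tests scipy 1.17.1. The edgeR p-values without a block measure the spread between libraries within a clone size and treat the 2 libraries of a mouse as independent. Exact permutation p-values rest on the 6 mice of a clone size.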

Additional observations from a re-analysis of the deposited data

Results flagged for a closer look

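Among 20 groups of 6 libraries searched for a library standing apart on the log2(CPM + 1) scale, 2 were found, where chance flags about 1 in 20 groups. Both concern Dync2li1, the light intermediate chain of dynein-2, in mouse 5. In large clones its library lay above the next one by 1 times the whole range, with 29 counts against 0 in each of the other 5 libraries. In small clones the gap was likewise 1 times the range, with 7 counts against 0 in each of the other 5. With the other 5 at 0 this ratio is 1 for any count above 0. The flags and the chance rate therefore say no more about this gene than its counts do.  In the 10 libraries at 0 the count allows up to 3 counts, or at most 1.33 CPM, so a level like the 2.03 CPM of the small clones of mouse 5 lies close to that limit while the 8.15 CPM of its large clones does not.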

How the results depend on the processing

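Between clone sizes, 0 genes passed an adjusted p under 0.05 in edgeR and in 18 of 20 alternatives. DESeq2 gave 5 genes, and 43 with the replicate block. Kif17 was among both and Cdkl1 among the latter, which is no independent evidence because both were picked for this difference; no other gene of the lists was, and the cause was not tested. The lowest adjusted p of a tested comparison gene over the alternatives was 0.460 (Ift88). Genes with an unadjusted p under 0.05 numbered 275, and 127 (at least 10 counts in every library) to 2880 (no filter) in the alternatives. Kif17 was lower in large clones in all 18 alternatives that tested it, from -5.27 to -2.82 (limma with quality weights), and was -3.56 with the replicate block; without mouse 5 the filter removed it. Cdkl1 was lower in 19 of 19, from -3.64 to -1.91 (without mouse 3), and -3.10 with the replicate block. Cilk1 and Ift88 kept their direction in 19 and 17 alternatives. The near-zero estimate of Kif3a (0.007) turned negative in 12 of 20: -0.073 with the replicate block, -0.0117 with the chemoreceptor share as covariate, -0.20 with both, -0.0144 with no filter, -0.0444 with at least 10 counts in every library, -0.0702 in DESeq2 with the replicate block, -0.25 in limma with weights and the replicate block, -0.0285 with unrounded counts and -0.44 in the 5 libraries of higher share. Without 1 mouse each it ran from -0.50 to 0.28. Kifap3 (-0.06) was 0.60 with the share as covariate, 0.65 when mouse was blocked as well, 0.31 in the 7 libraries and 0.33 in the 5, -0.97 with the replicate block alone, -2.29 in limma with quality weights, and -1.10 to 0.61 without 1 mouse. Mak (-0.31) was 0.0914 with the share as covariate, 0.15 in the 7 libraries, -1.44 in the 5, -1.21 in limma with quality weights, and -0.95 to 0.32 without 1 mouse. Dync2h1 (0.55) was -0.0493 in the 7 libraries, 2.24 in the 5, 1.23 with the share as covariate, and -0.16 to 0.86 without 1 mouse. None of these estimates passed, and the cause of the changes of sign was not tested. Kif3b and Dync2li1 gave no fold change because of their counts, and the depth limits what can be said of Kif17 in large clones, where 5 of 6 libraries had 4 to 6 counts.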

Other observations

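Ift43, an IFT-A subunit that the filter left untested, averaged 0.298 ± 0.398 CPM over large clones and 14.4 ± 23.0 CPM over small clones (SD, n = 6 each), with 63.2% of its 258 counts in the small clones of mouse 2. Kif19a, a kinesin that shortens motile cilia, was also untested, at 3.87 ± 6.27 and 16.6 ± 26.6 CPM, with 53.4% of its 373 counts in the small clones of mouse 4. Both were chosen after their values were seen. Ttc30a1, Ttc30a2 and Ttc30b, copies of the IFT70 subunit of IFT-B, had 11, 0 and 6 counts in all. Arl6, the GTPase that recruits the BBSome, had 1 count in 12 libraries.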
